A study of Rattus norvegicus with 29 samples.

Results

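The early response to gentamicin in rat kidney cells was measured by comparing the 3 gentamicin libraries at 6 h with the 2 control libraries of that time, 5 of the 29 libraries in the series. These are all the libraries labelled with either group at 6 h, the controls being replicates 2 and 3 and the gentamicin libraries replicates 1, 2 and 3. Both groups are primary cultures of epithelial cells from the proximal tubule of the rat kidney, either controls or exposed to gentamicin. The sources used here give no dose, vehicle, strain, sex or age. The series also holds controls at 24 h and cultures exposed for 6 h or 24 h to acetaminophen (an analgesic), gentamicin, TCDD (2,3,7,8-tetrachlorodibenzodioxin, a ligand of the aryl hydrocarbon receptor) or trichloroethylene (an industrial solvent). The labels do not say whether replicates are separate animals or cultures, and the spread behind each p-value may thus be technical.

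Gentamicin is an aminoglycoside antibiotic whose use is limited by damage to the proximal tubule. These cells take it up from the tubule fluid by endocytosis through the receptors megalin and cubilin and store it in lysosomes, where it disturbs the breakdown of phospholipids. The files name transcripts by Ensembl identifier and do not pair identifiers with genes, and the reference table matched 0 of them. The account below rests on classes of transcripts and on 4 that are given by identifier, and the labelled cell type was not checked against markers.

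The 5 libraries held between 8996315 and 10566202 estimated counts. On log2 CPM (counts scaled to library size) the 2 controls correlated at 0.98 across transcripts, the gentamicin libraries with each other at 0.973 to 0.977, and gentamicin with control libraries at 0.965 to 0.969. Of the gentamicin libraries, replicate 3 stood somewhat apart. A chi-square of its counts against those of replicates 1 and 2 gave 10.1 and 8.09 per degree of freedom, beside 4.2 between replicates 1 and 2 and 3.07 between the controls. On the second principal component of all 6 h libraries (12.4% of the variance), gentamicin replicates 1, 2 and 3 lay at -55.9, -51.1 and -34.9. Every other library lay between 3.9 and 26.7. On the third (7.64%), gentamicin replicates 1, 2 and 3 lay at -3.3, 6.9 and 26.1 and the controls at -33.4 and -24.9. That component also split replicates of 1 compound, with TCDD replicates 1, 2 and 3 at -26.1, -26.1 and 24.9. Mean fragment length, taken as transcript length minus effective length, was 247.7, 251.9 and 261.2 bases in gentamicin replicates 1, 2 and 3 and 257.1 and 263.2 bases in the controls, so the groups overlapped.

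Within 6 h gentamicin changed 2113 of the 15990 transcripts tested, or 13.2%. Of these, 1333 rose (8.34% of those tested) and 780 fell (4.88%), each at an adjusted p under 0.05 in edgeR's quasi-likelihood test. The median log2 change was 0.64 among the rises and -0.55 among the falls, while the median of all tested transcripts was 0. In bulk RNA, fewer cells of a type and less RNA per cell cannot be told apart. All 3 gentamicin libraries lay above both controls for 1333 of the rises and below both for 778 of the falls. That pattern alone held for 24.2% and 22.5% of all tested transcripts. The transcripts that rose made up 3.62% and 3.7% of all TPM (kallisto's length-corrected abundance) in the controls and 6.77% to 6.96% with gentamicin. Those that fell made up 9.97% and 9.95% in the controls and 6.71% to 7.34% with gentamicin. These shares describe transcripts picked by the same comparison and test nothing further.

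**Figure D1:**
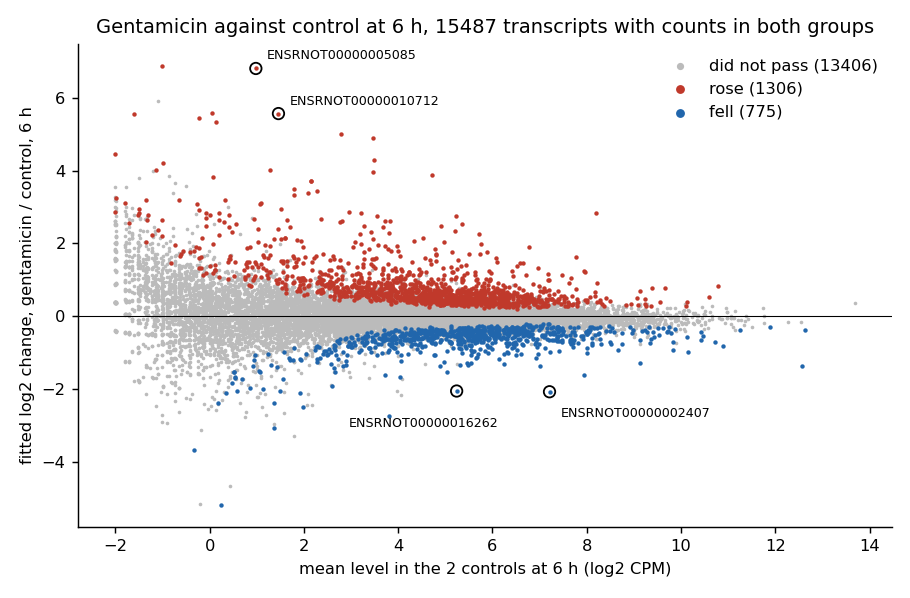
Each point is 1 of 15487 transcripts with counts in both groups, by its mean level in the 2 controls at 6 h (log2 CPM) and its fitted log2 change with gentamicin, with rises in red, falls in blue and the 4 transcripts named in the text circled. Large rises occur at low and middle control levels, and the 2 named falls are among few points below -2.

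The large changes went mostly upward. More than 2-fold changes numbered 337 rises and 92 falls, more than 4-fold changes 104 and 17, and more than 8-fold changes 34 and 5. When only transcripts with at least 10 counts in each of the 5 libraries were considered, 55 rises and 2 falls exceeded 4-fold. Leaving out any 1 of the 5 libraries kept these between 49 and 63 rises and between 2 and 3 falls (46 and 0 on log2(TPM + 1)), although the count of all calls dropped to 881 without control replicate 2 and to 980 without control replicate 3. With a single control left, its spread was taken from the other groups of the fit. A call was kept without each of the 5 libraries in turn by 78 of the 104 rises over 4-fold and by 61 of the 575 rises up to 1.5-fold. On log2(TPM + 1) the test called 1665 transcripts, of which 81.1% rose instead of 63.1%.

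The largest rise among transcripts with at least 10 counts in each of the 5 libraries was that of ENSRNOT00000005085, a transcript of 1894 bases. It stood at 1.49 and 1 TPM in the controls and at 189, 161 and 104 TPM in gentamicin replicates 1, 2 and 3. The groups were far apart, with gentamicin replicate 3 the lowest of its group. The log2 change was 6.81 ± 0.45 (SE; edgeR adjusted p = 9.63e-10), a 112-fold rise. Its counts in control were only 21 and 15, so the exact fold rests on few counts. At 24 h it stood at 0.651 ± 0.393 TPM in controls (SD, n = 3) and 722 ± 61.6 TPM with gentamicin (n = 3), and the effect was larger than at 6 h by 3.46 ± 0.86 on the log2 scale (edgeR adjusted p = 0.00267).

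ENSRNOT00000010712 (1589 bases) had the next largest rise among transcripts that also kept their call without each of the 5 libraries in turn. The controls held 1.57 and 2.96 TPM, and gentamicin replicates 1, 2 and 3 held 170, 122 and 59.2 TPM. Replicate 3 was again the lowest of the treated libraries, and the lack of overlap between groups was required by the rule. The log2 change was 5.57 ± 0.43 (SE; edgeR adjusted p = 4.95e-09). At 24 h the level was 142 ± 24.8 TPM with gentamicin and 2.79 ± 0.141 TPM in controls (SD, n = 3 each). The 24 h effect differed from the 6 h effect by 0.24 ± 0.61 on the log2 scale, which did not pass (edgeR adjusted p = 0.803).

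Of the falls, ENSRNOT00000002407 (4787 bases) was the largest by the same rule. It fell from 34.7 and 39.4 TPM in the controls to 11.6, 8.28 and 8.74 TPM with gentamicin, which is -2.08 ± 0.16 on the log2 scale (SE; edgeR adjusted p = 1.78e-09). The treated libraries all lay below both controls, as the rule required. By 24 h the gap was smaller: gentamicin libraries held 16.9 ± 0.873 TPM and controls 24.3 ± 5.75 TPM (SD, n = 3 each). The log2 change at 24 h was -0.38 ± 0.14 (edgeR adjusted p = 0.0246), and it did not pass without control replicate 2 of that time (-0.21, edgeR adjusted p = 0.229) or with fragment length as a covariate (-0.24, adjusted p = 0.158). It also missed the threshold without gentamicin replicate 1 (-0.34) or replicate 2 (-0.39) of 24 h. The difference between the times, 1.7 ± 0.22 on the log2 scale, passed (edgeR adjusted p = 9.44e-07). In controls this transcript was lower at 24 h (19 to 30.4 TPM) than at 6 h (34.7 and 39.4 TPM), so the smaller gap goes with a lower control as well as a higher treated level.

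ENSRNOT00000016262 (2505 bases) fell from 18.9 and 18.8 TPM in the controls to 4.55, 4.94 and 5.22 TPM with gentamicin. Both groups were tight, and the log2 change was -2.06 ± 0.16 (SE; edgeR adjusted p = 1.73e-09). It was still low at 24 h, with 3.65 ± 0.897 TPM under gentamicin and 25.7 ± 2.85 TPM in controls (SD, n = 3 each; log2 change -2.68 ± 0.15, edgeR adjusted p = 1.21e-13). The difference between the times was -0.62 ± 0.22 (edgeR adjusted p = 0.03). It did not pass in 7 of the 11 fits that each left out 1 library.

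**Figure D2:**
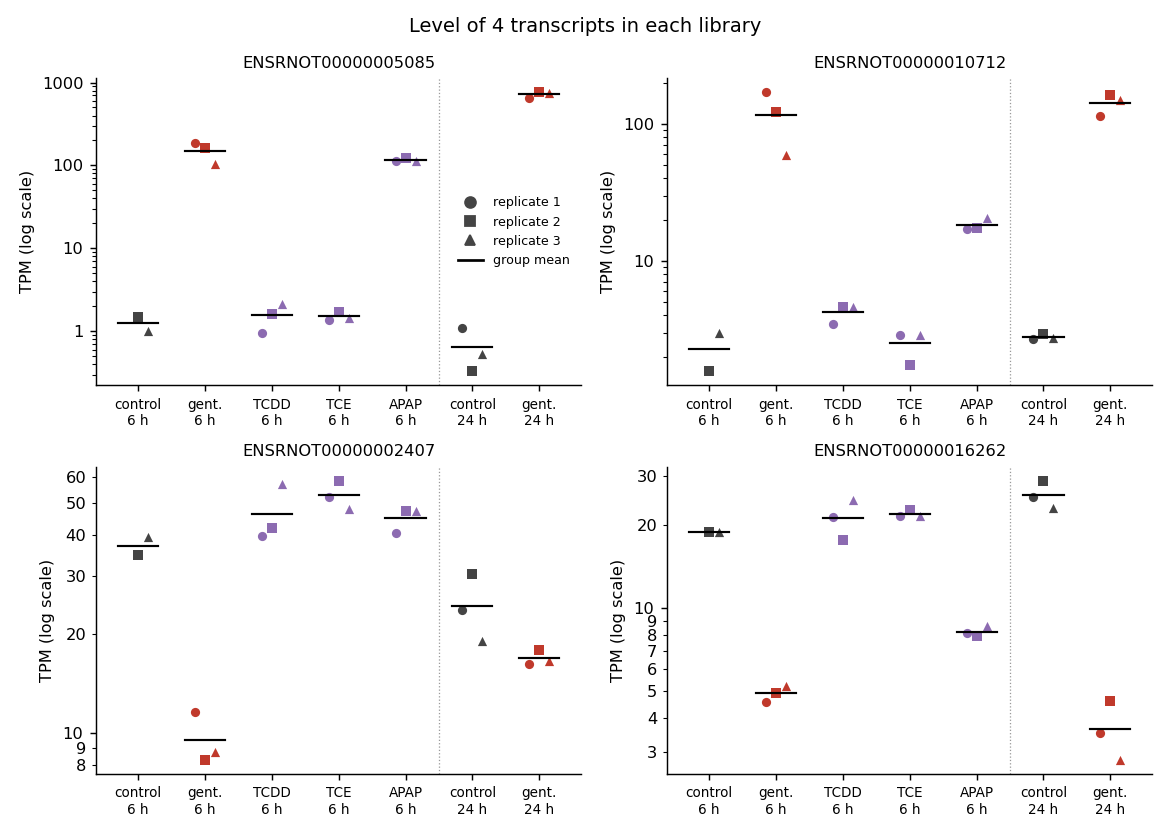
TPM on a log scale of the 4 named transcripts in each library of 7 groups, with a marker shape for each replicate number and a bar at the group mean. At 6 h the TCDD and trichloroethylene (TCE) libraries lie near the controls for all 4, while acetaminophen (APAP) is at 116 TPM for ENSRNOT00000005085 and at 8.21 TPM for ENSRNOT00000016262.

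The 10 largest rises chosen by this rule ran from 13.2-fold to 112-fold. Their levels were between 0.993 and 89.1 TPM in the controls and between 13 and 1840 TPM with gentamicin, and their lengths between 389 and 2519 bases. Of these, 2 had identical counts in all libraries, so their reads could not be told apart. The most abundant of the 10, with 389 bases, stood at 89.1 and 82.1 TPM in the controls and at 1840, 1690 and 1720 TPM with gentamicin. That is a log2 change of 4.3 ± 0.22 (SE). At 24 h all 10, that pair included, were higher in the edgeR test, by 4.23 to 10.27 on the log2 scale, as were 29.1% of all tested transcripts.

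The 10 largest falls were smaller, from 2.56-fold to 4.23-fold. One of them was the most abundant of the 181 falls that met the rule, a transcript of 1389 bases singled out after its values were seen. It fell from 6110 and 6040 TPM to 2650, 2370 and 2680 TPM, or by -1.36 ± 0.11 on the log2 scale (SE; edgeR adjusted p = 3.11e-09). At 24 h its gentamicin level was 1120 ± 41.9 TPM, against 6420 ± 557 TPM in controls (SD, n = 3 each). All 10 were also lower in the edgeR test at 24 h, as were 30.5% of all tested transcripts. One of them, ENSRNOT00000002407, lost that call in the 4 fits given above.

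The gentamicin libraries did not share the largest rises equally. Among the 104 rises over 4-fold, replicate 1 had the highest CPM of the 3 libraries in 72 and replicate 3 the lowest in 74. The median log2 ratio to the mean control over these transcripts was 2.6, 2.35 and 2.04 in replicates 1, 2 and 3. Rises up to 1.5-fold showed no such order, with medians of 0.4, 0.43 and 0.44. Among the 13877 transcripts that did not pass, replicate 3 was lowest in 4896 and highest in 5066. Replicate 3 had the longest fragments of the 3 (261.2 bases), and the part of fragment length in this was not tested.

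**Figure D3:**
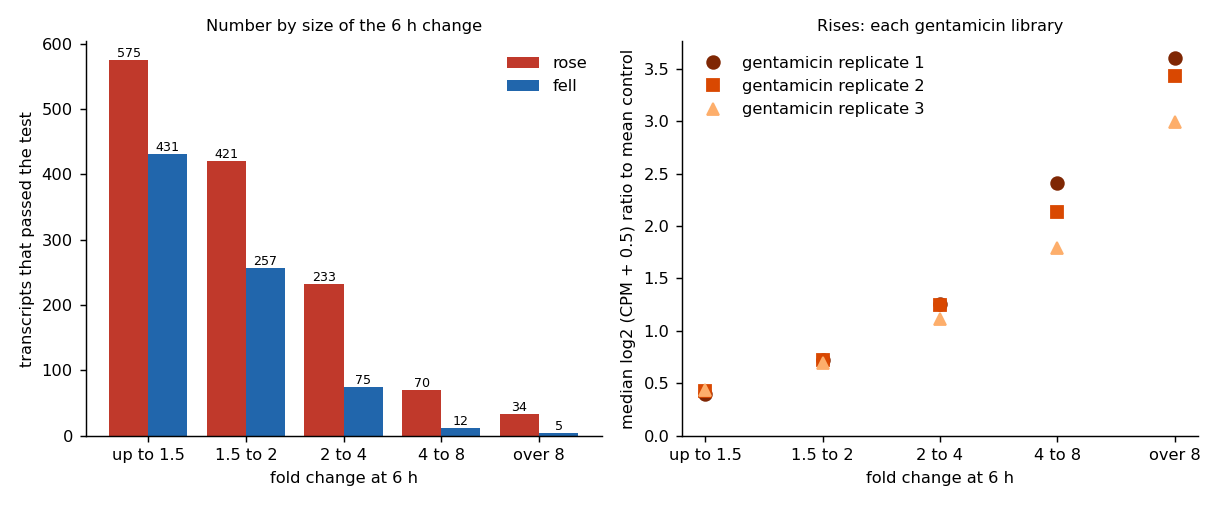
Left, the number of transcripts that rose (red) or fell (blue) by fold change at 6 h; right, for the rises of each class, the median log2 ratio of each gentamicin library to the mean control, on CPM + 0.5. Rises outnumber falls in every class, 575 to 431 up to 1.5-fold and 34 to 5 over 8-fold, and replicate 3 lies lowest in the classes over 1.5-fold, at 2.99 beside 3.6 and 3.43 over 8-fold.

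Against control, the direction of change varied with the level of the transcript. To keep the controls of the comparison out of the grouping, transcripts were ordered by their mean level in the controls at 24 h. Of the 4263 transcripts between 10 and 30 TPM, 11.7% rose and 5.86% fell. Of the 496 transcripts above 300 TPM, 3.43% rose and 8.47% fell. Set against the mean of TCDD and trichloroethylene, 15.7% were higher and 12.2% lower between 10 and 30 TPM. Above 300 TPM these shares were 7.06% and 9.68%. Medians moved from 0.04 to -0.16 between these classes against control, but from 0.01 to 0.04 against those compounds. Whether the controls have a part in the order by level was not tested. Below 1 TPM, 3.93% of 2163 rose and 0.832% fell against control. The median there was 0.05 against control and 0.12 against the mean of TCDD and trichloroethylene. The count filter spans all groups, so transcripts this rare could enter it through an exposed group where they were high. The part of the filter in the excess of rises below 1 TPM was not tested. The SE of a log2 change had a median of 0.843 in that class and between 0.122 and 0.223 from 3 TPM upward, so fewer changes were detectable among the rarest transcripts.

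Against control, direction also varied with transcript length. The share that rose was 2.13% under 500 bases, 6.52% from 1000 to 2000 bases and 11.6% from 4000 to 6000 bases. The share that fell was 3.5%, 5.76% and 3.97%. The SE of a log2 change had medians of 0.352, 0.173 and 0.151 in these classes, so fewer changes were detectable among the shortest transcripts. The median log2 change of all tested transcripts went from -0.11 between 500 and 1000 bases to 0.11 at 6000 bases or more. With fragment length as a covariate these medians were -0.15 and 0.16. When gentamicin was set against the mean of TCDD and trichloroethylene in place of control, they were 0.07 and -0.06, so the order by length ran the other way. That swap also changed fragment length. It was 249.8 to 277.8 bases in the TCDD and 269.3 to 278.2 bases in the trichloroethylene libraries, beside 247.7 to 261.2 bases with gentamicin. Whether fragment length or the 2 control libraries have a part in the order by length was not tested. The strongest rises were not the longest transcripts. Median length was 1925 bases among rises over 4-fold, 2748 bases among rises up to 1.5-fold and 2019 bases among all tested. Rises up to 1.5-fold pass only where the SE is small, and the part of detection in this contrast was not tested.

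**Figure D4:**
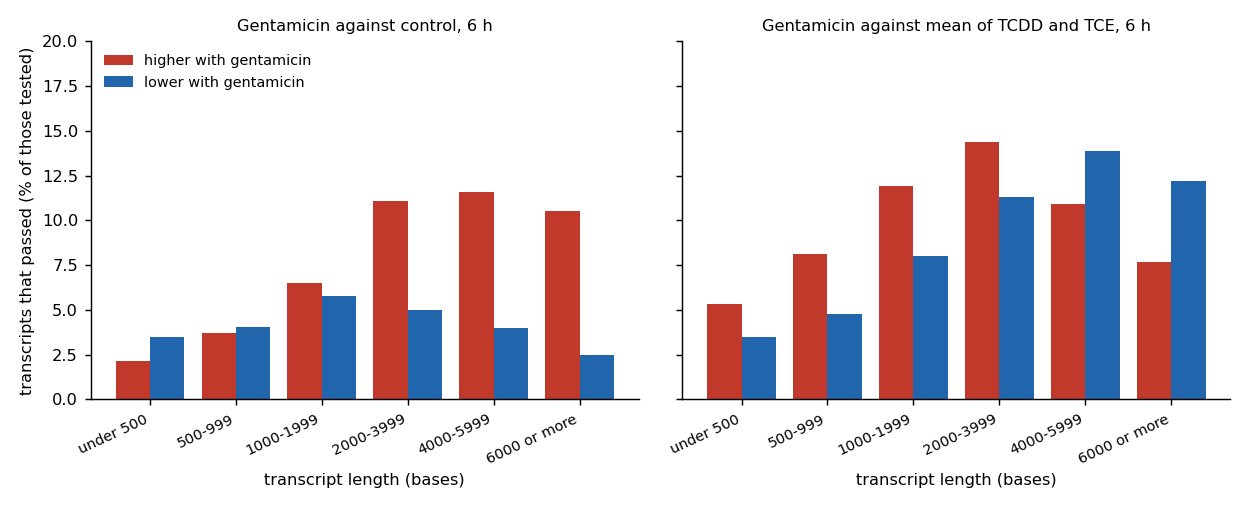
Bars give the percent of tested transcripts in each length class that were higher (red) or lower (blue) with gentamicin at 6 h, against control on the left and against the mean of TCDD and trichloroethylene on the right. Against control, rises go from 2.13% under 500 bases (median SE 0.352) to 10.5% at 6000 bases or more (median SE 0.161). On the right, 7.69% are higher and 12.2% lower in the longest class.

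The second comparison at 6 h asked how gentamicin differed from the other exposed cultures of that time without use of the 2 controls. Gentamicin differed from the mean of the 6 TCDD and trichloroethylene libraries in 3401 transcripts (21.3% of those tested), 1895 higher (11.9%) and 1506 lower (9.42%) in the edgeR test. Both comparisons use the same 3 gentamicin libraries, so their values are only set side by side. Over the 104 rises over 4-fold, the median log2 difference was 2.68 against control and 2.51 against the mean of TCDD and trichloroethylene. Over the 14 falls over 4-fold with counts in both groups, the medians were -2.25 and -2.2. For ENSRNOT00000005085 the log2 difference was 6.64 ± 0.28 (SE) against the mean of these compounds, for ENSRNOT00000010712 5.2 ± 0.27, for ENSRNOT00000002407 -2.36 ± 0.14 and for ENSRNOT00000016262 -2.12 ± 0.14. The 4 named transcripts thus stood apart from TCDD and trichloroethylene cultures by about as much as from controls.

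Acetaminophen, TCDD and trichloroethylene at 6 h were each measured against the same 2 controls as gentamicin, so these changes too are only set side by side. For the 104 rises over 4-fold with gentamicin, log2 changes had a median of 1.54 with acetaminophen, 0.2 with TCDD and 0.02 with trichloroethylene. ENSRNOT00000005085 stood at 116 ± 5.66 TPM with acetaminophen and 151 ± 43.5 TPM with gentamicin (SD, n = 3 each). ENSRNOT00000010712 stood at 18.3 ± 1.98 TPM with acetaminophen, and at 117 ± 55.6 TPM with gentamicin. ENSRNOT00000016262 was at 8.21 ± 0.336 TPM with acetaminophen and 4.9 ± 0.337 TPM with gentamicin, and ENSRNOT00000002407 at 45 ± 3.91 TPM with acetaminophen and 9.53 ± 1.78 TPM with gentamicin. For the last, the controls held 37 ± 3.35 TPM (n = 2).

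What became of the early changes was read from the gentamicin and control libraries at 24 h, none of which belongs to the 6 h groups. By then 59.6% of all tested transcripts differed from the controls of that time, 29.1% higher and 30.5% lower. Of the 1333 early rises, 1019 had also risen at 24 h (76.4%). They were 429 of 575 rises up to 1.5-fold (74.6%), 324 of 421 between 1.5-fold and 2-fold (77%), 178 of 233 between 2-fold and 4-fold (76.4%), 58 of 70 between 4-fold and 8-fold (82.9%) and 30 of 34 over 8-fold (88.2%), and these shares were not tested against each other. The median log2 change of the last class was 3.91 at 6 h and 6.29 at 24 h. No rise over 8-fold had become a fall at 24 h, while 64 of the 575 smallest rises had. The median control level at 6 h was 1.19 TPM in the former class and 19.8 TPM in the latter. Of all tested transcripts below 1 TPM in the 24 h controls, 5.87% fell at 24 h. That share was 24.3% from 1 to 3 TPM and 37.7% between 10 and 30 TPM. The 24 h test uses the same controls that set these classes, which by itself disfavours falls in the lowest. Falls may thus have been harder to detect among the largest rises, and nothing is drawn from this contrast.

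Of the 780 early falls, 594 had also fallen at 24 h (76.2%). Of the falls between 1.5-fold and 2-fold, 211 of 257 (82.1%) had also fallen at 24 h, with a median log2 change of -0.71 at 6 h and -1.23 at 24 h. Of the 17 falls over 4-fold, 7 had fallen at 24 h, 1 had risen and 9 did not pass. These 17 were rare transcripts, with a median of 1.79 TPM in the controls at 6 h.

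A test of the change in effect from 6 h to 24 h passed for 39.2% of all tested transcripts, 18.7% with a higher and 20.4% with a lower effect at 24 h. Among the 1333 early rises, 627 had a higher and 236 a lower effect at 24 h. Among the 780 early falls, 299 had a lower and 125 a higher effect at 24 h. Picking transcripts by their 6 h call favours differences that run against the 6 h change. Here most of the differences that passed ran with it, while 470 of the early rises and 356 of the early falls did not pass. The balance shifts with the scale: with total counts in place of TMM factors, the early rises gave 501 higher and 332 lower effects and the early falls 410 lower and 65 higher.

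**Figure D5:**
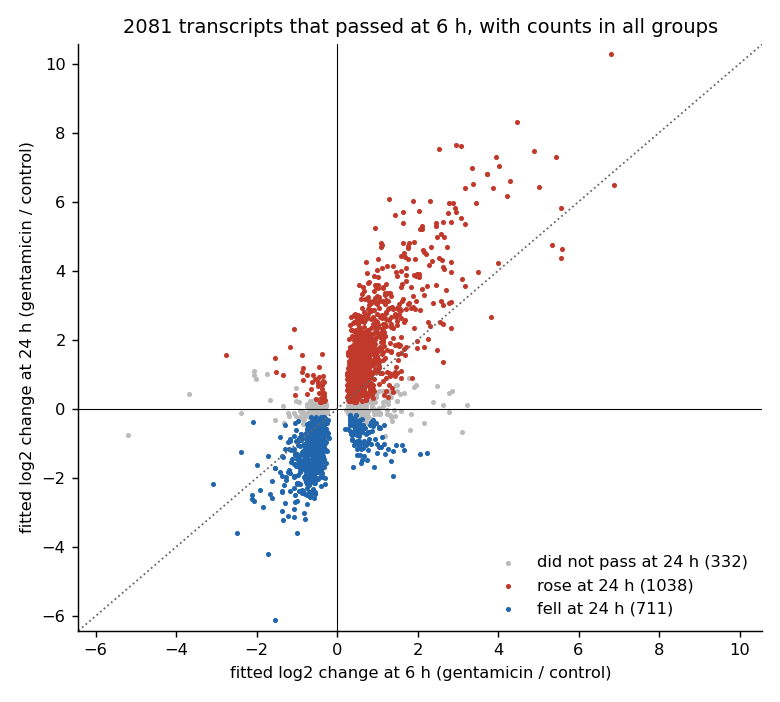
Fitted log2 changes at 6 h (horizontal) and 24 h (vertical) of 2081 transcripts that passed at 6 h and had counts in all 4 groups, coloured by the test at 24 h; the dotted line marks equal changes. Most early rises lie above 0 at 24 h and the largest mostly above the dotted line, while 117 of the 1333 early rises had become falls.

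The transcripts that gentamicin raised early were also looked up in cultures exposed to the other compounds for 24 h. These comparisons share no library with the 6 h one, but they share the 24 h controls with each other and with gentamicin at 24 h. Of the 104 rises over 4-fold, 88 (84.6%) were higher with gentamicin at 24 h, 66 (63.5%) with acetaminophen, 67 (64.4%) with TCDD and 53 (51%) with trichloroethylene. Of all tested transcripts, 29.1%, 30.3%, 33.9% and 20.7% were higher in the same comparisons, and 59.6%, 59.4%, 66.9% and 40.7% passed in either direction. The median log2 changes of the 104 at 24 h were 4.29, 1.38, 1.91 and 1.05. These 104 were rare in the 6 h controls, with a median of 1.36 TPM. The count filter spans all groups, so rare transcripts could enter it through an exposed group where they were high. Of all tested transcripts below 1 TPM in the 24 h controls, 27.1% rose and 5.87% fell with gentamicin at 24 h. From 1 to 3 TPM, 20.3% rose and 24.3% fell. Shares of all tested transcripts are thus not matched for level. Among the 575 rises up to 1.5-fold, the shares higher with acetaminophen, TCDD and trichloroethylene were 37.4%, 38.6% and 32.3%, and 192 (33.4%), 226 (39.3%) and 114 (19.8%) were lower. Of all tested transcripts 29.2%, 33% and 19.9% were lower. ENSRNOT00000005085 stood at 108 ± 4.24 TPM with acetaminophen, 24.2 ± 4.47 TPM with TCDD and 11.9 ± 7.58 TPM with trichloroethylene at 24 h, all above the 0.651 ± 0.393 TPM of the controls (SD, n = 3 each). ENSRNOT00000002407 at 24 h held 5.45 ± 0.774 TPM under TCDD and 8.52 ± 0.986 TPM under trichloroethylene, below the 16.9 ± 0.873 TPM with gentamicin at that time.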

How the data were processed

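Reads were quantified by the authors with kallisto 0.43, per the submitters' processing notes. Each deposited table holds the authors' estimated counts and TPM (per the file headers) for 28420 transcripts. The transcript set and strand setting: not given in the sources used here. kallisto divides reads between transcripts that share sequence. Of the called transcripts, 12 had the same counts as another.

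Estimated counts were rounded and filtered with filterByExpr (minimum count 10), which left 15990 transcripts with 99.95% of counts. TMM factors and 1 quasi-likelihood model with robust dispersion over all 29 libraries in 10 groups were fitted with edgeR 4.0.16 (R 4.3.3; 19 residual degrees of freedom). A transcript counts as called where its p, adjusted by Benjamini-Hochberg over all tested, is under 0.05. SE values had a median of 0.174. SE is the change divided by the square root of F. A group without counts was set at 3 counts per library in medians and size classes, giving a lower bound. Medians with the fragment length covariate, or against the mean of TCDD and trichloroethylene, kept the fitted values.

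Named transcripts are the 2 largest rises and falls among those called, with at least 10 counts in each of the 5 libraries, no overlap between groups, and the call kept without each library in turn; 429 rises and 181 falls qualified. The comparisons and rules were chosen with earlier results of these data known. Classes by length, level and 24 h behaviour, and the look at other compounds at 24 h, were computed after the values were seen. Gene lists could not be used. The steps were tested on simulated counts for this comparison (15766 transcripts on average, 200 changed, 4 draws). The test found 38.5% of changes of 1.5-fold, 78% at 2-fold and 92.5% at 4-fold, and 4.54% of calls were false. Each draw changed far fewer transcripts than were called in the data, so the share of false calls may not carry over. Recovery was not split by transcript level, so it may not hold for rare transcripts. Alternatives used DESeq2 1.42.0, limma 3.58.1 on log2(TPM + 1), other factors, filters, covariates and fits without single libraries.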

Additional observations from a re-analysis of the deposited data

Results flagged for a closer look

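The gentamicin effect differed between 6 h and 24 h, by the test of the difference itself, in 6266 transcripts (39.2% of those tested), 2997 with a higher and 3269 with a lower effect at 24 h. Higher effects were 47.8% of these. With total counts they were 29.2%, and in limma on log2(TPM + 1) 30.9%. The median difference of all transcripts was -0.051, -0.291 and -0.233 in these fits. The same test passed for 3 of the 4 named transcripts. The difference was 3.46 on the log2 scale for ENSRNOT00000005085, which rose further, 1.7 for ENSRNOT00000002407, whose fall was smaller at 24 h, and -0.62 for ENSRNOT00000016262, which fell further but missed the threshold with median-of-ratios factors (-0.56, edgeR adjusted p = 0.0511). No group here has the 4 libraries needed to look for a single outlying one.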

How the results depend on the processing

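With all libraries kept, the count of 2113 calls at 6 h ran from 1665 (limma on log2(TPM + 1)) to 3146 (fragment length covariate), with 2572 in DESeq2. Leaving out 1 library at a time gave 881 to 1687, the lowest 2 values without a control. Rises were 57.2% to 68.3% of calls in every fit but limma (81.1%). Falls numbered 780, but 1310 with the covariate and 315 in limma. The other 3 counts of calls stayed within 1.5 times under all settings. The replicate number as a block gave 1964 calls at 6 h; deviations of same-numbered control and gentamicin libraries correlated at 0 and 0.02, so numbers 2 and 3 were not taken as pairs. The 6 h changes of the 4 named transcripts kept direction and call in every setting that used all 5 libraries. The fits without 1 library were part of the rule that chose them. Fitted on the 5 libraries alone, the edgeR adjusted p was 0.00569 for ENSRNOT00000005085 and 0.039 for ENSRNOT00000010712. It was 0.000156 for ENSRNOT00000002407 and 1.57e-05 for ENSRNOT00000016262. The smaller values given above thus rest on a spread shared with the other groups. The 24 h minus 6 h difference of ENSRNOT00000010712, never past the threshold, was 0 with total counts, -0.28 without control replicate 3 and -0.1 without gentamicin replicate 3 of 6 h (0.24 with all libraries; -0.28 to 0.62 over the fits without 1 library); the cause was not tested. Depth limits calls below 1 TPM, and 2 controls limit all of them.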

Other observations

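Of the 15990 tested transcripts, 280 were counted at 6 h with gentamicin but in neither control, and 85 in a control but in no gentamicin library. The groups differ in size, with 3 and 2 libraries. The edgeR test called 27 of the 280 and 5 of the 85. At least 10 counts in each library of the other group were held by 10 of the 280, of which 6 were called, and by 9 of the 85, of which 3 were called. The number of transcripts with at least 1 count was 16921 and 17094 in the controls and 17110, 17125 and 17423 with gentamicin (exact permutation test, two-sided p = 0.2, the smallest that 3 against 2 libraries can give). The 100 most abundant transcripts of each library held 30.2% and 30.1% of all TPM in the controls and 27.8%, 27.8% and 26.2% with gentamicin (exact permutation test, p = 0.2). With TCDD and trichloroethylene at 6 h that share was between 26.7% and 28.6%, and with acetaminophen between 32.2% and 32.9%.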
